A study of Mus musculus with 97 samples.

Results

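At birth (P0), Cdk5r1 mutant cells from a cortex in which every cell is mutant were compared with Cdk5r1 mutant cells that are sparse in a heterozygous cortex. Libraries were chosen by genotype and age alone, which gave 10 KO-Cdk5r1-MADM and 6 Cdk5r1-MADM libraries, 16 of the 97 libraries of the series. The series sequenced polyadenylated RNA of GFP+ cells sorted from MADM cortices of mice of strain CD1, with 2000 cells of 1 cerebral cortex for each library. MADM (mosaic analysis with double markers) labels single cells by an exchange between the copies of a chromosome, here chromosome 11, that Cre starts in dividing progenitors. KO-Cdk5r1-MADM mice carry the MADM-11 cassettes as GT,Cdk5r1 over TG,Cdk5r1, with the Cdk5r1 null allele on both MADM chromosomes, so that all cells are mutant and some of them are green. Cdk5r1-MADM mice carry them as GT over TG,Cdk5r1, with the null allele on 1 MADM chromosome, so that the green cells are homozygous mutant among heterozygous cells. Control-MADM mice carry GT over TG without a null allele and gave 12 libraries at P0. All groups carry Emx1-Cre, which acts in the progenitors of cortical projection neurons and of cortical glia, so that GFP marks a lineage and not a single cell type. The green cells of both mutant paradigms have the same genotype and differ in the genotype of the cells around them.

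Cdk5r1 encodes p35, the activating subunit of the kinase CDK5, which is required for the radial migration of cortical projection neurons. These neurons arise from radial glia, in many cases through intermediate progenitors, and are laid down in layers with the later-born neurons above the earlier-born. Around birth the same radial glia turn to the production of astrocytes and oligodendrocyte precursors, whereas GABAergic interneurons, microglia and the cells of blood vessels come largely from sources outside the Emx1 lineage.

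The total count on genes was 4007541 to 5393155 in the KO-Cdk5r1-MADM libraries, 2356133 to 5692309 in Cdk5r1-MADM and 3635070 to 5480448 in control-MADM. Cdk5r1 (ENSMUSG00000048895.13, chr11:80477023-80481184 of mm10) had 60.4 to 112 normalized CPM (the count relative to the library total, scaled to 1e+06) in KO-Cdk5r1-MADM, 52.6 to 122 in Cdk5r1-MADM and 136 to 256 in control-MADM. The mutant paradigms therefore overlapped with each other (log2 fold change 0.09 ± 0.15 (SE), adjusted p = 0.776, edgeR) and both lay below every control library. The counts cover the whole gene, including exon sequence that the null allele keeps. Cdk5, the kinase itself, had a log2 fold change of 0.23 (adjusted p = 0.197), and Cdk5r2, which encodes the related activator p39, of -0.15 (adjusted p = 0.72).

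The libraries differed in 2 ways that run along the comparison and that stand beside every result here. First, reads of the mitochondrial gene mt-Nd3 and of its nuclear copy Gm28438 replaced each other. The KO-Cdk5r1-MADM libraries had 0 to 1 mt-Nd3 counts and 45 to 150 Gm28438 counts, whereas the Cdk5r1-MADM libraries had 18 to 77 and 0 to 2. The control-MADM libraries were split into 6 of the Gm28438 class and 6 of the mt-Nd3 class. At P0 the paradigm and the mitochondrial class cannot be told apart, and a difference can be set against the class only within control-MADM. Second, the library numbers in the sample titles fall into 2 runs with a gap between them, and the labels do not say what a run stands for. KO-Cdk5r1-MADM replicates 1 to 6, all 6 Cdk5r1-MADM libraries and 10 control libraries belong to the first run, and KO-Cdk5r1-MADM replicates 7 to 10 and 2 control libraries to the second. The 6 and 4 KO-Cdk5r1-MADM libraries of the 2 runs themselves differed, with 532 genes higher and 323 lower in the second run at an adjusted p under 0.05 (edgeR).

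Of 13087 tested genes, 433 (3.31%) were upregulated and 692 (5.29%) downregulated in KO-Cdk5r1-MADM relative to Cdk5r1-MADM at an adjusted p under 0.05 (edgeR's quasi-likelihood test with Benjamini-Hochberg adjustment, used for every adjusted p of a gene below). The upregulated side was made of small changes in well expressed genes. Its median log2 fold change was 0.51, 51 of its 433 genes moved beyond 1 on the log2 scale, and the median level was 66.6 CPM, against 32 CPM over all tested genes. The downregulated side had a median of -0.88, 267 of 692 genes beyond 1, and a median level of 31.1 CPM. Protein-coding genes made up 410 of the upregulated and 680 of the downregulated differentially expressed genes (DEGs). With 295 tested genes of extracellular matrix and cell adhesion set aside, of which 12 were upregulated and 45 downregulated, 421 upregulated and 647 downregulated DEGs remained, and these are described here.

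The runs did not contribute equally. The 6 KO-Cdk5r1-MADM libraries of the first run alone gave 793 upregulated (6.07%) and 1313 downregulated (10.0%) DEGs against Cdk5r1-MADM. The 4 of the second run gave 1 upregulated (0.00765%) and 19 downregulated (0.145%), with 1888 genes at an unadjusted p under 0.05. The median change of the 433 upregulated DEGs was 0.56 in the first run and 0.42 in the second, and that of the 692 downregulated DEGs -1.10 and -0.63. These 2 comparisons share the Cdk5r1-MADM libraries, which are all of the first run, and the second has fewer KO-Cdk5r1-MADM libraries. A value given below with the second run sets second-run KO-Cdk5r1-MADM against first-run Cdk5r1-MADM libraries. In such a value run and paradigm cannot be told apart. In control-MADM alone, where no cell is mutant, the Gm28438 class differed from the mt-Nd3 class in 5 genes (4 higher and 1 lower, with 1727 at an unadjusted p under 0.05). These 5 include Gm28438 and mt-Nd3 themselves, whose counts define the classes, so that their calls were fixed in advance. Over the 433 upregulated DEGs the median difference between these control classes was 0.21, with 367 genes above 0, and over the 692 downregulated DEGs it was -0.34, with 630 genes below 0. The median over all tested genes was -0.01. In the median, the changes between the paradigms thus had a smaller counterpart of the same sign between control libraries of different mitochondrial class.

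Kcng1 (ENSMUSG00000074575.4, chr2:168260117-168281736), which encodes a modifying subunit of voltage-gated potassium channels, had the smallest adjusted p of the upregulated genes described here. It had 15.8 CPM in the lowest, 37.2 in the median and 50.7 in the highest KO-Cdk5r1-MADM library, against 4.57, 6.10 and 12.4 in Cdk5r1-MADM. No library of one paradigm reached the other, and the log2 fold change was 2.43 ± 0.37 (SE, adjusted p = 0.000512). Kcng1 was the only upregulated DEG with the second-run KO-Cdk5r1-MADM libraries alone, with a log2 fold change of 2.34 (adjusted p = 0.0266) against 2.48 in the first run. The control classes differed in it by 1.37, and the control medians were 13 CPM in the Gm28438 class and 7.78 in the mt-Nd3 class.

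Neurod1 (ENSMUSG00000034701.9, chr2:79452521-79456751), a basic helix-loop-helix (bHLH) transcription factor of newborn neurons, ranged over 41.8, 74.4 and 97.6 CPM (lowest, median, highest) in KO-Cdk5r1-MADM and 28.3, 32.5 and 40.1 in Cdk5r1-MADM. All 10 KO-Cdk5r1-MADM libraries were above all 6 Cdk5r1-MADM libraries, with a log2 fold change of 1.13 ± 0.19 (SE, adjusted p = 0.0011). It was 1.27 with the first and 0.88 with the second run (adjusted p = 0.0825). Neurog2, the proneural bHLH factor of cortical progenitors, ranged over 18.7, 85.4 and 116 CPM against 10.2, 25.3 and 55.4, and 7 of 10 KO-Cdk5r1-MADM libraries were above all Cdk5r1-MADM libraries (log2 fold change 1.54 ± 0.48 (SE), adjusted p = 0.0435). The difference between the control classes, 1.61, was as large as this.

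Hes6, a bHLH factor that promotes neuronal differentiation, rose by 0.50 (adjusted p = 0.0154), and Mfng, a glycosyltransferase that modifies Notch, by 0.73 (adjusted p = 0.0253). Tbr1, a T-box factor of early-born projection neurons, had 138, 238 and 313 CPM against 103, 113 and 164, and rose by 0.94 (adjusted p = 0.00838). The difference between the control classes was 0.86 for Tbr1, 0.40 for Hes6 and 0.58 for Mfng. Slc17a6, which encodes the vesicular glutamate transporter VGLUT2, had 42.0, 64.7 and 80.7 CPM against 22.4, 31.7 and 46.9, with 9 of 10 KO-Cdk5r1-MADM libraries above all of Cdk5r1-MADM (log2 fold change 0.87 ± 0.17 (SE), adjusted p = 0.00226). Nsg2, a protein of neuronal endosomes, rose by 0.36 (adjusted p = 0.0415), whereas the general neuronal genes Tubb3 and Stmn2 had log2 fold changes of 0.11 (adjusted p = 0.649) and -0.16 (adjusted p = 0.703). Of 24 tested bHLH factors of neuronal differentiation, 3 rose (12.5%, against 3.31% of all tested genes) and 2 fell (8.33%, against 5.29%). The median was -0.04, so the rise of Neurod1, Neurog2 and Hes6 was not one of the family as a whole.

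bHLH factors bind the sequence CANNTG, and the promoters in RefSeq (GRCm38.p6, 250 bases before to 50 after the start of a gene) were searched for 3 of its forms on both strands. CAGATG, the form preferred by NEUROG2 and NEUROD1, was present in 10.8% of the 9846 promoters of tested genes, in 42 of 337 promoters of upregulated DEGs (12.5%) and in 67 of 516 of downregulated DEGs (13%). CAGCTG was present in 15%, 17.2% and 19.2% of them, and CATATG in 1.48%, 3.86% (13 promoters) and 1.74% (9 promoters). No form overlaps another. Promoters of 2 upregulated genes are shown because each holds 1 such match, in capitals. They were picked after their values were seen. That of Hes6 is chr1:91413989-91414288 on the minus strand, with CAGCTG from -171 to -166 counted from the start as 0. That of Nos1 is chr5:117866589-117866888 on the plus strand, a RefSeq start inside the gene as the counts define it, with CAGATG, read on the other strand as CATCTG, from 30 to 35.
Hes6: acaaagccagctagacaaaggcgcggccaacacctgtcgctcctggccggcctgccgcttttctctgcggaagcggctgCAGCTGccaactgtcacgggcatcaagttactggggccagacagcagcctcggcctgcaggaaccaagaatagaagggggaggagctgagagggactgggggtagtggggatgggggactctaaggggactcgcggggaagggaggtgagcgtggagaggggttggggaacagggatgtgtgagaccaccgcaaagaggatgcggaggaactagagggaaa
Nos1: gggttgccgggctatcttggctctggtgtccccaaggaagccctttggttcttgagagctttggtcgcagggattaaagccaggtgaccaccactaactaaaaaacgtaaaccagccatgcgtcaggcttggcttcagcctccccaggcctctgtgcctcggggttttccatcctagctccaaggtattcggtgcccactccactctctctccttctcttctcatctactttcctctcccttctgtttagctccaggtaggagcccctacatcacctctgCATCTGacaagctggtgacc

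Map2k6, a kinase that activates p38, had 35.9, 56.8 and 60.4 CPM in KO-Cdk5r1-MADM and 21.9, 31.8 and 32.9 in Cdk5r1-MADM (log2 fold change 0.85 ± 0.14 (SE), adjusted p = 0.00117). Dusp4, which encodes a phosphatase of MAP kinases, had 22.8, 43.5 and 66.7 CPM against 17.8, 19.1 and 22.7 (1.21 ± 0.22, adjusted p = 0.00184). Dusp14, a phosphatase of the same family, had 32.8, 51.4 and 63.5 CPM against 18.8, 21.9 and 28.3 (1.08 ± 0.21, adjusted p = 0.00225). In each of these 3 genes all KO-Cdk5r1-MADM libraries lay above all Cdk5r1-MADM libraries, which held for 76 tested genes in all (0.581%), and the opposite order for 138 (1.05%). Of 68 tested genes of MAP kinase cascades and dual-specificity phosphatases, 6 rose (8.82%, against 3.31% of all tested genes) and 2 fell (2.94%, against 5.29%), with a median of 0.01, which is the median of all tested genes. Pak1, a CDK5 substrate that regulates actin, rose by 0.49 (adjusted p = 0.00636). Of 25 tested genes of the CDK5 pathway it was the 1 that rose, while Pafah1b1 (LIS1, a regulator of dynein) fell by 0.37 (adjusted p = 0.0135) and Ywhae (14-3-3 epsilon) by 0.30 (adjusted p = 0.032). These shares of 4% up and 8% down are near the 3.31% and 5.29% of all tested genes. None of 16 tested genes of the Reelin-DAB1 pathway passed the test, with a median of -0.13.

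**Figure D1:**
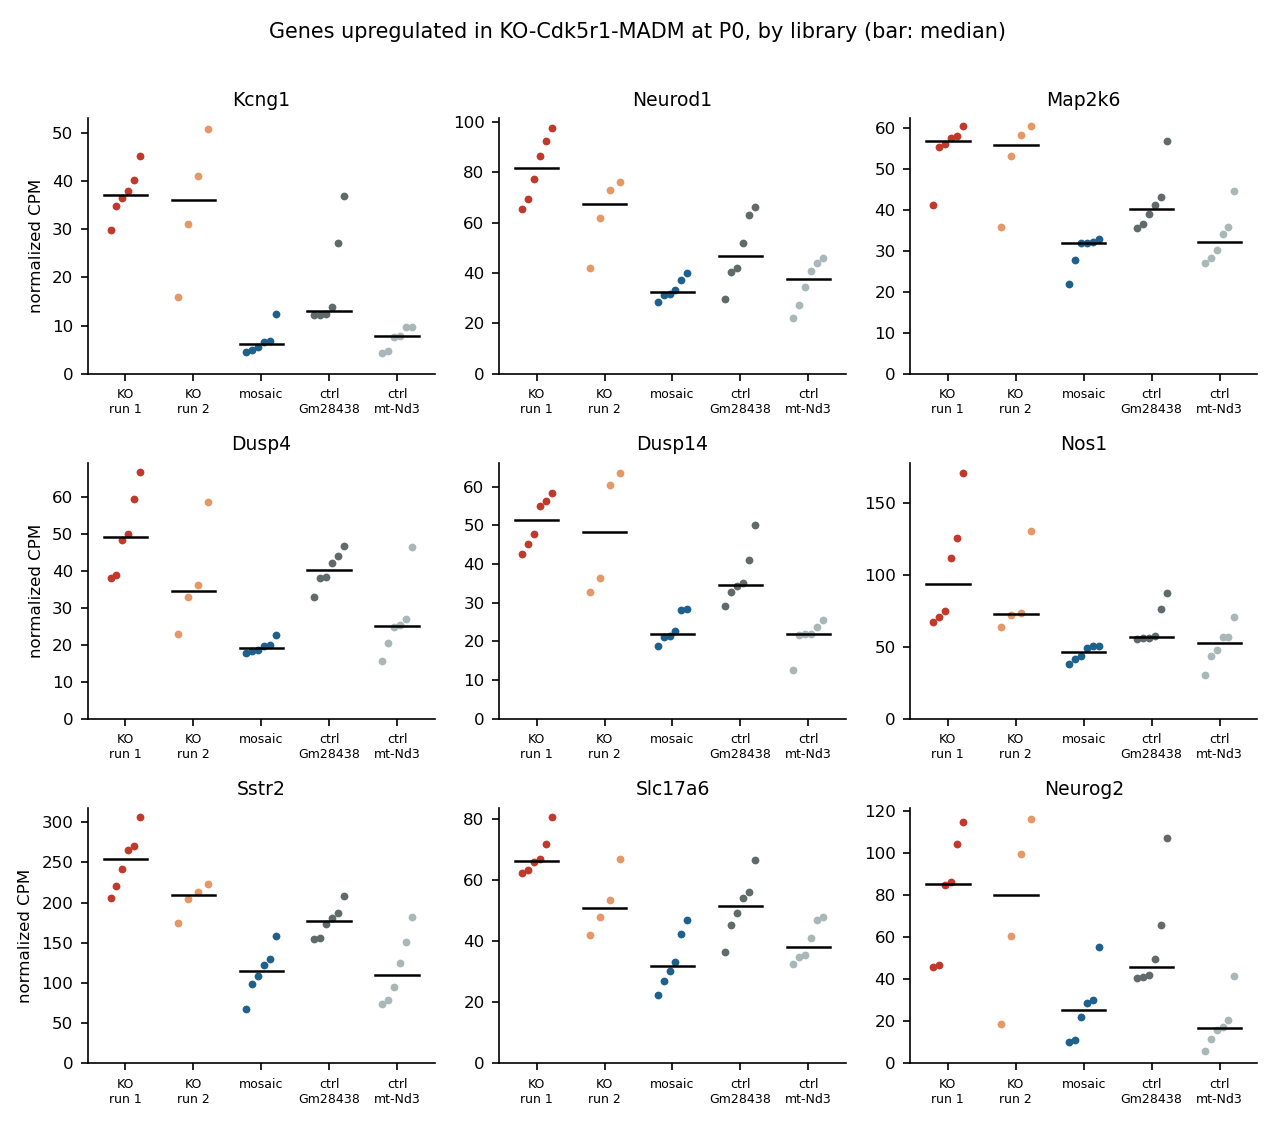
Normalized CPM of 9 upregulated genes in each P0 library, with KO-Cdk5r1-MADM split by run of library numbers, Cdk5r1-MADM marked as mosaic, and control-MADM split by mitochondrial class; points are libraries and bars are medians. Kcng1 lies at 15.8 to 50.7 CPM in KO-Cdk5r1-MADM and at 4.57 to 12.4 in Cdk5r1-MADM, and in Neurog2 the control libraries of the Gm28438 class (median 45.7) lie above those of the mt-Nd3 class (median 16.6).

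Receptors for neuropeptides moved in both directions. Sstr2, a somatostatin receptor, had 174, 222 and 306 CPM against 67.8, 115 and 158 (log2 fold change 1.02 ± 0.20 (SE), adjusted p = 0.00248), without overlap. Sstr3 rose by 2.78 (adjusted p = 0.00523) from a median of 0.388 CPM to one of 3.84. Sstr1, in contrast, fell from 20.8, 31.4 and 52.3 CPM in Cdk5r1-MADM to 2.30, 7.59 and 14.8 in KO-Cdk5r1-MADM (-2.20 ± 0.34, adjusted p = 0.000512), again without overlap. It was also called with only the second-run KO-Cdk5r1-MADM libraries against the same Cdk5r1-MADM libraries (-2.33, adjusted p = 0.0234). Vipr1, a receptor for vasoactive intestinal peptide, rose by 1.62 (adjusted p = 0.027) at 10.0 against 2.11 CPM in the median libraries. Over the 29 tested receptors for amines, acetylcholine and neuropeptides, 3 rose and 3 fell (10.3% each, against 3.31% and 5.29% of all tested genes). Nos1, the neuronal nitric oxide synthase, had 63.8, 74.2 and 171 CPM against 38.2, 46.6 and 50.8 (1.07 ± 0.21, adjusted p = 0.00248), and it overlaps 2 other annotated genes, and reads that fell on more than 1 gene were set aside and are not in its count.

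The remaining upregulated genes with the smallest adjusted p belonged to varied functions. Adi1, an enzyme of methionine salvage, rose by 0.69 (adjusted p = 0.00117), Copa, a subunit of the COPI vesicle coat, by 0.55 (adjusted p = 0.00147), and Sez6, a membrane protein of dendrites, by 0.70 (adjusted p = 0.00205). In all 3 the paradigms did not overlap. Frmd4b, a scaffold protein, rose by 0.70 (adjusted p = 0.00225), Lnx2, a ubiquitin ligase that binds Numb, by 0.98 (adjusted p = 0.00261), Flywch2 by 0.82 (adjusted p = 0.00225), Glt28d2 by 1.99 (adjusted p = 0.00238) and Fam160a1 by 1.56 (adjusted p = 0.00686). Adi1 and Copa were each the 1 upregulated gene of their lists, of 20 tested genes of the methionine cycle (5%) and of 51 of ER-Golgi traffic (1.96%). These shares are near the 3.31% of all tested genes, and neither list held a downregulated gene.

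Cytosolic ribosomal protein genes were the list with the highest median among the functions, at 0.22 over 84 tested genes. Of these, 71 were above 0, 9 rose (10.7%, against 3.31% of all tested genes) and none fell. Rps2 had 195, 251 and 319 CPM against 75.8, 130 and 184 (0.98, adjusted p = 0.00722), and Fau, which encodes ribosomal protein S30, rose by 0.83 (adjusted p = 0.00731). Ribosomal protein genes have processed pseudogenes, and keeping reads with a single place may split their counts, which leaves them uncertain. The median was 0.26 with the first run, 0.14 with the second, 0.11 between the control classes and 0.03 against control-MADM of the Gm28438 class. Nuclear-encoded subunits of the respiratory chain had a median of 0.08 over 89 genes, with 1 upregulated gene (1.12%), and proteasome genes a median of 0.08 over 55, also with 1 (1.82%). The replication-dependent and variant histones had 2 upregulated genes of 25 (8%), among them Hist3h2ba (0.79, adjusted p = 0.00523). Tubb4a, a beta tubulin with close paralogues, rose from a median of 481 to 894 CPM (0.88, adjusted p = 0.00271), while 4 of 113 genes of tubulins and microtubule motors rose and 4 fell. These shares, 3.54% each, are near the 3.31% and 5.29% of all tested genes.

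Neuronal excitability genes did not move as a block. Kcna1, a voltage-gated potassium channel subunit, rose by 2.24 (adjusted p = 0.00412) at 3.86 against 0.765 CPM, whereas Kcnd2 fell by 0.93 (adjusted p = 0.00205). Of 39 tested voltage-gated potassium channels and subunits, 2 rose (5.13%) and 3 fell (7.69%), and of 32 sodium, calcium and HCN channels 1 fell (3.12%). Of all tested genes 3.31% rose and 5.29% fell. Of 29 glutamate receptors and auxiliary subunits 3 fell (10.3%), among them Grm3 (-1.65, adjusted p = 0.00117), a metabotropic receptor that is abundant in astrocytes. Of 16 GABA and glycine receptors 3 fell (18.8%), among them Gabbr2 (-0.75, adjusted p = 0.00753), a subunit of the GABA B receptor, which was also called with the second run alone (-1.03, adjusted p = 0.0415). For the synaptic vesicle cycle the runs diverged: 6 of 78 tested genes rose (7.69%) and 3 fell (3.85%) with all libraries, 22 rose and 2 fell with the first run, and none did with the second, where the median was -0.10 against 0.26 in the first. This was not particular to that list. The first-run and second-run medians were 0.15 and -0.21 for voltage-gated potassium channels, and 0.23 and -0.43 for sodium, calcium and HCN channels. They were 0.40 and -0.42 for GABA and glycine receptors. Syt11, a member of the synaptotagmin family, fell by 0.68 (adjusted p = 0.00117).

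**Figure D2:**
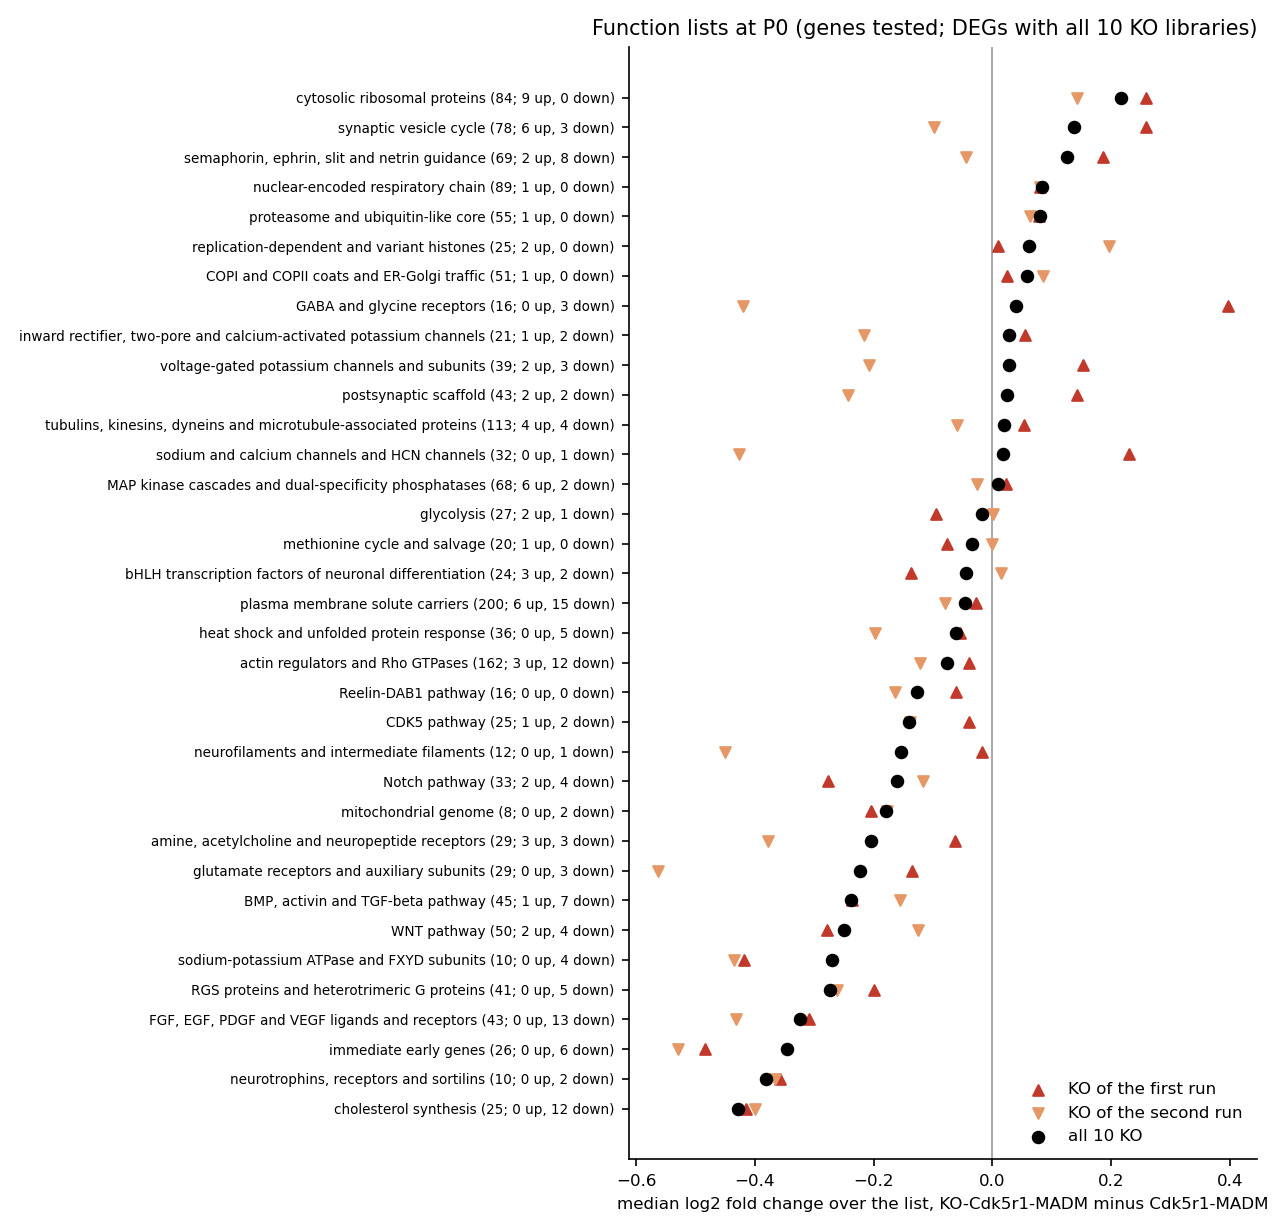
Median log2 fold change of KO-Cdk5r1-MADM minus Cdk5r1-MADM over each function list, with all 10 KO-Cdk5r1-MADM libraries (circles) and with those of the first (upward triangles) and second run (downward triangles); the labels give the genes tested and the DEGs with all libraries. Ribosomal proteins have the highest median (0.22) and cholesterol synthesis the lowest (-0.43), and the synaptic vesicle cycle is among the lists that change sign between the runs.

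On the downregulated side, Atp1b1 (ENSMUSG00000026576.12, chr1:164437109-164458355), which encodes the beta 1 subunit of the sodium-potassium ATPase, had the smallest adjusted p. It had 90.1, 126 and 145 CPM in KO-Cdk5r1-MADM and 235, 284 and 338 in Cdk5r1-MADM, without overlap (-1.22 ± 0.13 (SE), adjusted p = 2.98e-06). The change was -1.16 with the first and -1.34 with the second run (adjusted p = 0.00319), and it remained a DEG with the level of glial markers as a covariate (-0.99, adjusted p = 0.00497) and within the Gm28438 class against control-MADM (-0.65, adjusted p = 0.00272). It was not called with the mitochondrial class as a covariate (-0.68, adjusted p = 0.514), and the control classes differed by -0.54 (unadjusted p = 8.81e-05, adjusted p = 0.0639). Of 10 tested subunits of this pump and its FXYD regulators 4 fell (40%, against 5.29% of all tested genes) and none rose. Sorcs3, a sorting receptor of the sortilin family, had 2.79, 4.50 and 6.09 CPM against 9.56, 11.7 and 16.5 (-1.43 ± 0.20, adjusted p = 0.00013), and within the Gm28438 class against control-MADM it was lower by 1.04 on the log2 scale (adjusted p = 0.0247). Fst, the activin inhibitor follistatin, had 0.559, 5.90 and 15.4 CPM against 30.4, 58.5 and 87.3 (-2.95 ± 0.40, adjusted p = 0.00013). Fst was called with the second run alone (-3.21, adjusted p = 0.0207), as was Sorcs3 (-1.38, adjusted p = 0.0234), and Atp1b1 and Fst were the 2 DEGs left with the level of endothelial and mural markers as a covariate.

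Cholesterol synthesis had the lowest median of the function lists. Of 25 tested genes 12 fell and none rose, with a median of -0.43, against 5.29% downregulated among all tested genes. Msmo1 had 129, 156 and 180 CPM against 198, 237 and 330 (-0.68 ± 0.15 (SE), adjusted p = 0.00485) and Dhcr7 70.8, 100.1 and 150 against 164, 182 and 241 (-0.82 ± 0.18, adjusted p = 0.00523), both without overlap. The median of the list was -0.41 in the first run and -0.40 in the second, where no gene passed the test, -0.37 between the control classes and -0.18 against control-MADM of the Gm28438 class. Astrocytes are a main site of cholesterol synthesis in the brain, and the summed level of astrocyte markers, given below, was also lower in KO-Cdk5r1-MADM. The log2 ratio of the astrocyte markers was -1.48 with the first and -0.66 with the second run, whereas the cholesterol median was nearly the same in both. The part of astrocytes in the cholesterol list was not tested.

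Of 43 tested ligands and receptors of the FGF, EGF, PDGF and VEGF families 13 fell (30.2%, against 5.29% of all tested genes) and none rose (median -0.32). Ntrk2, the receptor of BDNF, fell by 0.94 (adjusted p = 0.00107), and Spry4, an inhibitor of receptor tyrosine kinase signalling, by 1.18 (adjusted p = 0.00527). In the BMP, activin and TGF-beta pathway 7 of 45 fell (15.6%) and 1 rose, and those that fell include Tgfb2 (-1.01, adjusted p = 0.00485) beside Fst. In the WNT pathway 2 of 50 rose and 4 fell, shares of 4% and 8% near the 3.31% and 5.29% of all tested genes, and Wnt7b, a ligand made by cortical neurons and progenitors, rose by 0.76 (adjusted p = 0.00445) while Dkk3 fell by 0.63 (adjusted p = 0.00343). In the Notch pathway 2 of 33 rose (6.06%) and 4 fell (12.1%). Igfbp5, which binds insulin-like growth factors, fell by 1.62 (adjusted p = 0.00107), Rgs5, a regulator of G protein signalling that is abundant in pericytes, by 2.51 (adjusted p = 0.000512), and Pld2, a phospholipase, by 1.28 (adjusted p = 0.00107).

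Of 26 immediate early genes 6 fell (23.1%, against 5.29% of all tested genes), among them Klf6 (-0.94, adjusted p = 0.00271) and Egr3 (-1.19, adjusted p = 0.0047), and the median of the list was -0.35. Of 36 heat shock and unfolded protein response genes 5 fell (13.9%), among them the endoplasmic reticulum chaperones Canx (-0.49, adjusted p = 0.00248) and Hspa5 (-0.55, adjusted p = 0.00564). In neither of these lists did a gene rise. Of 200 tested plasma membrane solute carriers 6 rose (3%) and 15 fell (7.5%), and of 162 actin regulators 3 rose (1.85%) and 12 fell (7.41%), shares near those of all tested genes (3.31% and 5.29%). Of 69 guidance genes of the semaphorin, ephrin, slit and netrin families 2 rose (2.9%) and 8 fell (11.6%).

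Composition was read from lists of cell-type markers, summed over the genes of a list in CPM of all gene counts and compared over the 16 libraries with a two-sided exact permutation test on the log2 scale, adjusted over 17 lists. In these bulk samples fewer cells of a type and less RNA per cell cannot be told apart. The shares of marker genes that rose or fell stand against 3.31% and 5.29% of all tested genes. General neuronal markers were level over all 10 KO-Cdk5r1-MADM libraries, but the runs differed. Their sum was 4897, 6945 and 8601 CPM (lowest, median, highest) in KO-Cdk5r1-MADM and 5636, 6558 and 8024 in Cdk5r1-MADM, a ratio of 1.00 (adjusted exact p = 0.96), and 1 of 14 tested genes rose (7.14%). The KO-Cdk5r1-MADM libraries had 6738 to 8601 CPM in the first run and 4897 to 5813 in the second. The ratio was 1.15 with the first run (adjusted exact p = 0.0638) and 0.82 with the second. Markers of upper-layer projection neurons summed to 3736, 4202 and 5397 CPM against 4799, 5181 and 6170, and 9 of 10 KO-Cdk5r1-MADM libraries were below all of Cdk5r1-MADM (ratio 0.82, adjusted exact p = 0.00584). Among the 18 tested genes of that list 1 rose (5.56%) and 4 fell (22.2%). Those that fell include Mef2c (-0.96, adjusted p = 0.0174), a transcription factor, Nectin3, an adhesion molecule (-0.96, adjusted p = 0.00525), and Ptn (-0.64, adjusted p = 0.0219). Cux1 had a log2 fold change of 0.06 (adjusted p = 0.621), and the median of the list was -0.04. Mef2c was also called with the second run alone (-1.54, adjusted p = 0.0366).

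Deep-layer markers had a ratio of 1.17 (562, 977 and 1257 CPM against 740, 778 and 913, adjusted exact p = 0.2). Of 18 tested genes 3 rose (16.7%, against 3.31% of all tested genes), including Tbr1. The 1 that fell (5.56%, near the 5.29% of all tested genes) was Etv1 (-0.75, adjusted p = 0.0284), a factor of layer 5. The ratio was 1.36 with the first run (adjusted exact p = 0.00818) and 0.93 with the second. Of 8 tested subplate markers Nxph4 (1.41, adjusted p = 0.016) and Tmem178 (0.60, adjusted p = 0.023) rose, 2 fell (25% each), and the median of the log2 fold changes was -0.58. Their summed level differed from this median in sign, with a ratio of 1.14 (121, 184 and 207 CPM against 142, 155 and 172, adjusted exact p = 0.127), and 7 of 10 KO-Cdk5r1-MADM libraries were above all Cdk5r1-MADM libraries.

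Intermediate progenitors were the cell type with the most upregulated markers. Their list summed to 1119, 1513 and 1925 CPM in KO-Cdk5r1-MADM and 959, 1068 and 1254 in Cdk5r1-MADM, with 7 of 10 KO-Cdk5r1-MADM libraries above all of Cdk5r1-MADM (ratio 1.35, adjusted exact p = 0.00485). Of 14 tested genes 5 rose (35.7%, against 3.31% of all tested genes), none fell, 11 had a log2 fold change above 0, and the median was 0.41. In the median libraries (CPM of all gene counts) Hes6 was at 460 against 331 and Sstr2 at 223 against 116. Eomes was at 43.0 against 38.4, and Btg2 was lower, at 125 against 138. Against control-MADM of the Gm28438 class the median of the list was -0.10. The ratio was 1.27 with the first and 1.48 with the second run. The control classes differed in the same direction, with 1281 to 1898 CPM in the Gm28438 class and 645 to 1478 in the mt-Nd3 class, a log2 ratio of 0.49. Proliferation markers had a ratio of 0.88 (adjusted exact p = 0.394), and none of 28 genes passed the test with all libraries. With the first run 12 fell and the ratio was 0.70 (adjusted exact p = 0.00818), whereas in the second run the ratio was 1.24. Mcm7, a replication helicase subunit, had a log2 fold change of 0.14 (adjusted p = 0.56), and Dll3, a Notch ligand of progenitors, of 0.06 (adjusted p = 0.897).

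Glial markers were lower in KO-Cdk5r1-MADM. The radial glia list summed to 3778, 5977 and 12885 CPM against 10911, 12056 and 15985 in Cdk5r1-MADM (ratio 0.50, adjusted exact p = 0.00425), and 11 of 23 genes fell (47.8%, against 5.29% of all tested genes). The astrocyte list summed to 2830, 4167 and 7733 CPM against 7674, 9391 and 13111 (ratio 0.45, adjusted exact p = 0.00255), and 12 of 15 fell (80%). The oligodendrocyte lineage list summed to 473, 818 and 1654 CPM against 1470, 1978 and 2380 (ratio 0.43, adjusted exact p = 0.00212), and 10 of 12 fell (83.3%). None of these lists held an upregulated gene, and in each of them 9 of 10 KO-Cdk5r1-MADM libraries lay below all 6 Cdk5r1-MADM libraries. The exception was KO-Cdk5r1-MADM replicate 9, of the second run.

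The single glial genes given next were all lower in KO-Cdk5r1-MADM, but not every member of these lists was. Of the tested genes, 3 of the radial glia list and 1 of the oligodendrocyte lineage list had a log2 fold change above 0. Hes5, of the radial glia list, differed little in the median libraries, at 492 against 577 CPM of all gene counts. Slc1a3, the glutamate transporter GLAST, had 223, 424 and 739 CPM against 1011, 1108 and 1532 (-1.46 ± 0.26 (SE), adjusted p = 0.00146). Sox9, a transcription factor of glial progenitors, fell by 1.10 (adjusted p = 0.0047), Fabp7, a fatty acid binding protein of radial glia, by 1.23 (adjusted p = 0.0117) and Mfge8, a secreted protein of glial cells, by 0.83 (adjusted p = 0.0369). Aqp4, the water channel of astrocytes, fell by 2.08 (adjusted p = 0.00107), Kcnj10, an inward rectifier of glia, by 1.43 (adjusted p = 0.00611) and Apoe by 1.41 (adjusted p = 0.00485). In the oligodendrocyte lineage Cspg4 (NG2) fell by 1.82 (adjusted p = 0.00107), Sox10 by 2.00 (adjusted p = 0.00117) and Olig1 by 1.27 (adjusted p = 0.0162).

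The size of the glial difference depended on the run. The ratio to Cdk5r1-MADM was 0.39 with the first and 0.74 with the second run for radial glia, 0.36 and 0.63 for astrocytes, and 0.32 and 0.68 for the oligodendrocyte lineage. Control-MADM spanned nearly the whole range, since its radial glia list summed to 3763 to 15052 CPM in the Gm28438 class and 10286 to 15311 in the mt-Nd3 class. With the summed glial level as a covariate, 1 gene was upregulated and 13 downregulated.

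Markers of interneurons, mural cells, endothelial cells and microglia were lower in KO-Cdk5r1-MADM. The interneuron list summed to 460, 564 and 743 CPM against 762, 876 and 1022, without overlap (ratio 0.66, adjusted exact p = 0.00212), and 13 of 19 genes fell (68.4%, against 5.29% of all tested genes). Dlx1, a homeobox factor of interneurons, had 31.4, 55.5 and 92.5 CPM against 105, 119 and 134 (-1.06 ± 0.19 (SE), adjusted p = 0.0013), Dlx2 fell by 0.81 (adjusted p = 0.022) and Dlx6os1 fell by 1.79 (adjusted p = 0.00271). The neuropeptide gene Npy did not follow them, with a log2 fold change of 1.01 (adjusted p = 0.209), and 160 to 286 CPM in KO-Cdk5r1-MADM of the first run against 20.1 to 267 in the second and 38.8 to 212 in Cdk5r1-MADM.

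The mural cell list summed to 36.6, 71.9 and 109 CPM against 143, 195 and 240 in Cdk5r1-MADM, without overlap (ratio 0.35, adjusted exact p = 0.00212). Of its 6 tested genes 5 fell (83.3%, against 5.29% of all tested genes), among them Pdgfrb (-0.97, adjusted p = 0.0285). This list shares Cspg4 with the oligodendrocyte lineage list. Cspg4 made up much of the mural sum, with a median of 21.3 CPM in KO-Cdk5r1-MADM and 82.4 in Cdk5r1-MADM, so the sum is not of mural cells alone. Endothelial markers summed to 123.3, 164 and 210 CPM against 204, 268 and 1098 (ratio 0.51, adjusted exact p = 0.00212), and 6 of 9 genes fell (66.7%). Slco1c1 (median 61.0 against 132 CPM) and Slc2a1 (48.4 against 59.5) made up most of the median sums. Pecam1 (0.465 against 0.988) and Cdh5 (0 against 0.275) were near 0, so the sum rests largely on a few genes of the list. Cldn5, a tight junction protein of endothelium, had a log2 fold change of -4.75 (adjusted p = 0.00244) that rested in part on Cdk5r1-MADM replicate 3, with 294 CPM, while the remaining 5 libraries of that paradigm lay between 4.24 and 24.1. Without that library it was -2.58 (adjusted p = 0.0323). Esam, an adhesion molecule of the same cells, fell by 2.93 (adjusted p = 0.0056), but the same library had 51.0 CPM against 2.11 to 6.37 in the other Cdk5r1-MADM libraries, and without it Esam was not called (-1.35, adjusted p = 0.142). Microglia markers summed to 20.1, 44.0 and 153 CPM against 36.1, 161 and 300 (ratio 0.34, adjusted exact p = 0.0288), and 4 of 14 genes fell (28.6%), among them Laptm5 (-2.42, adjusted p = 0.00686) and Fcrls (-2.96, adjusted p = 0.0117).

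The lists of Cajal-Retzius cells, fibroblasts and meninges, erythroid cells and choroid plexus did not pass the exact test, and none of their 14 tested genes was a DEG. Of the defining markers, 7 of 22 endothelial, 3 of 13 mural, 4 of 10 Cajal-Retzius and 3 of 7 choroid plexus genes had a median of 0 CPM in KO-Cdk5r1-MADM, and 5, 4, 3 and 2 of them in Cdk5r1-MADM. With the summed endothelial and mural level, which includes Cspg4, Slco1c1 and Slc2a1, as a covariate no gene was upregulated and 2 were downregulated. The part of glial, interneuron and vascular markers in the DEGs of other functions was not tested.

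**Figure D3:**
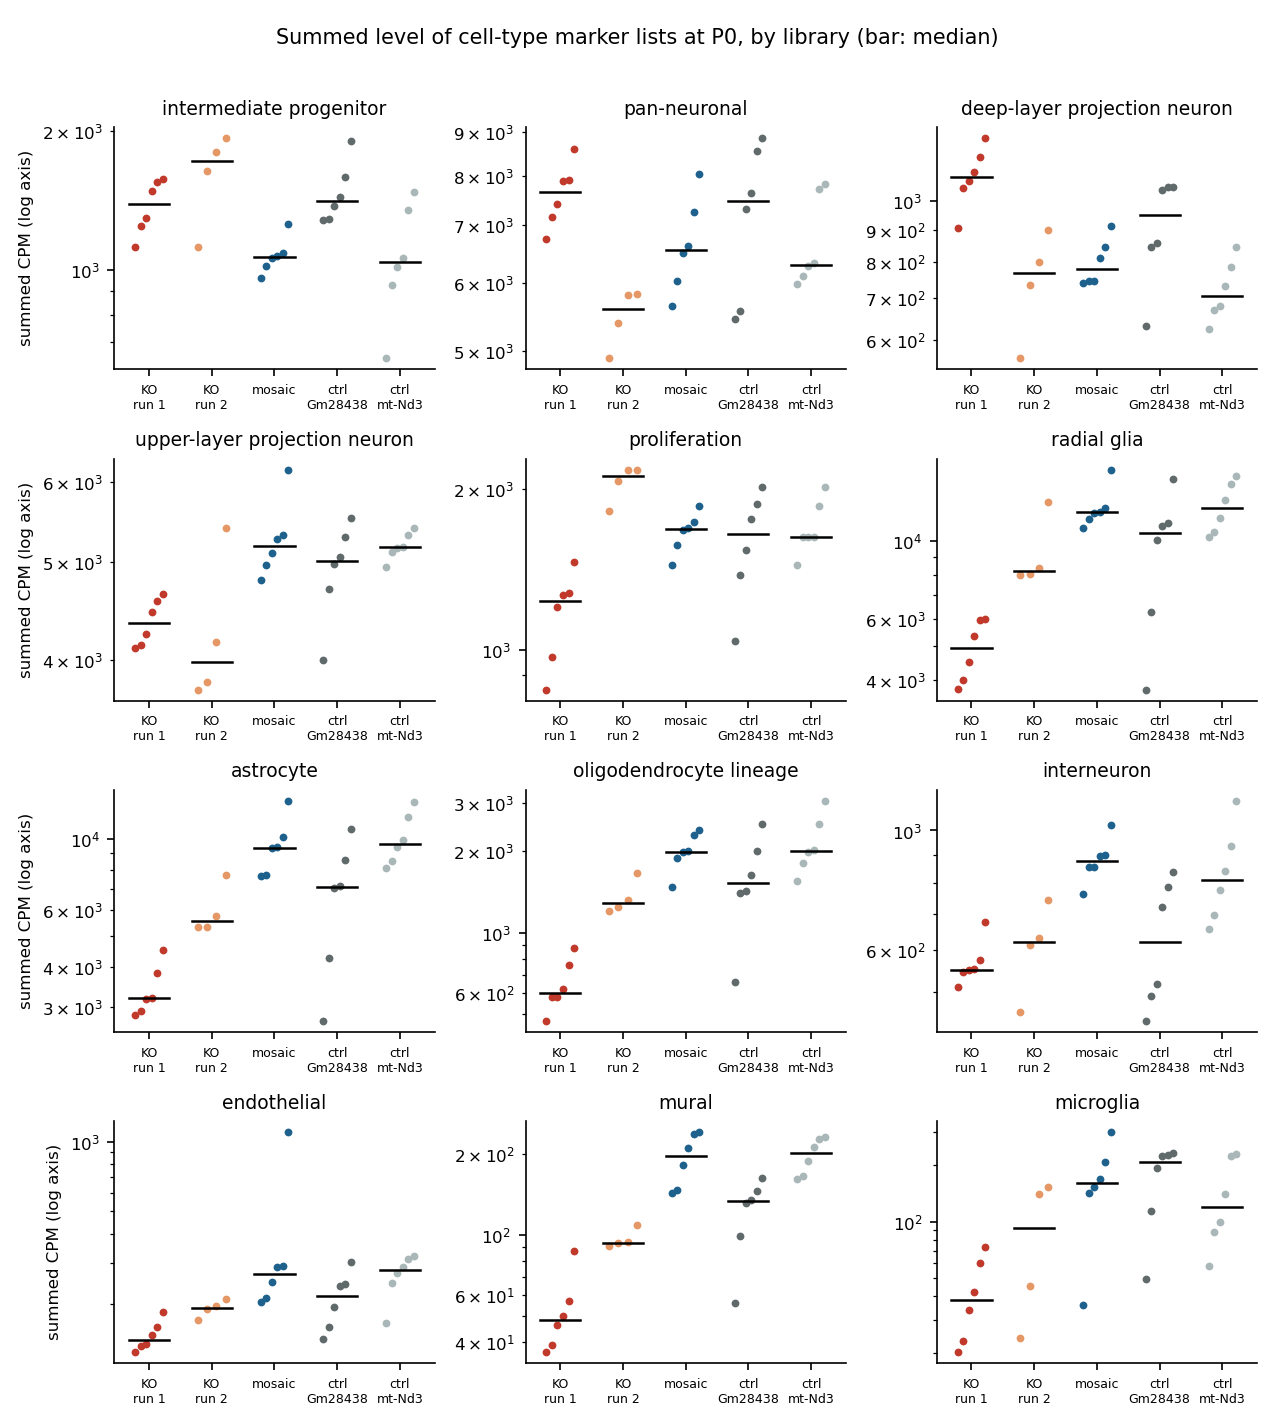
Summed CPM (log axis) of 12 lists of cell-type markers in each P0 library, with KO-Cdk5r1-MADM split by run of library numbers, Cdk5r1-MADM marked as mosaic and control-MADM split by mitochondrial class; points are libraries and bars are medians. Radial glia, astrocyte and oligodendrocyte lists have their lowest group median in the first-run KO-Cdk5r1-MADM libraries, and 7 of 10 KO-Cdk5r1-MADM libraries exceed all Cdk5r1-MADM libraries in the intermediate progenitor list.

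The same comparison at embryonic day 16 (E16), with 11 KO-Cdk5r1-MADM and 7 Cdk5r1-MADM libraries, gave no upregulated and 1 downregulated DEG, with 1291 genes at an unadjusted p under 0.05. The 433 genes upregulated at P0 had a median log2 fold change of 0.07 at E16 and the 692 downregulated genes one of 0.05. At E16, 4 KO-Cdk5r1-MADM libraries and 1 control library stood apart with mural markers of 182 to 489 CPM, and without them these medians were 0.08 and -0.07. Kcng1 had a log2 fold change of 0.62 and Neurod1 of -0.26 at E16, and the change from E16 to P0 passed the test for Kcng1 with and without the libraries apart (adjusted p = 0.0143 and 0.0485), and for Neurod1 only with them (adjusted p = 0.0126 and 0.0761). Across all genes, 68 had a higher and 260 a lower log2 fold change at P0 than at E16, and 18 and 25 without the libraries apart.

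Set against control-MADM, which shares its libraries between both comparisons, the medians of the 433 upregulated DEGs were 0.28 in KO-Cdk5r1-MADM and -0.23 in Cdk5r1-MADM, and those of the 692 downregulated DEGs were -0.64 and 0.22. KO-Cdk5r1-MADM had 168 upregulated and 507 downregulated DEGs against control-MADM, and Cdk5r1-MADM had 1 and 1. Against the 6 control libraries of its own mitochondrial class KO-Cdk5r1-MADM had 1 and 6, with 1134 genes at an unadjusted p under 0.05. Besides Cdk5r1, Atp1b1 and Sorcs3, the 7 were Adora2b, an adenosine receptor, and 3 genes named only by clone. They were named after their values were seen.

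**Figure D4:**
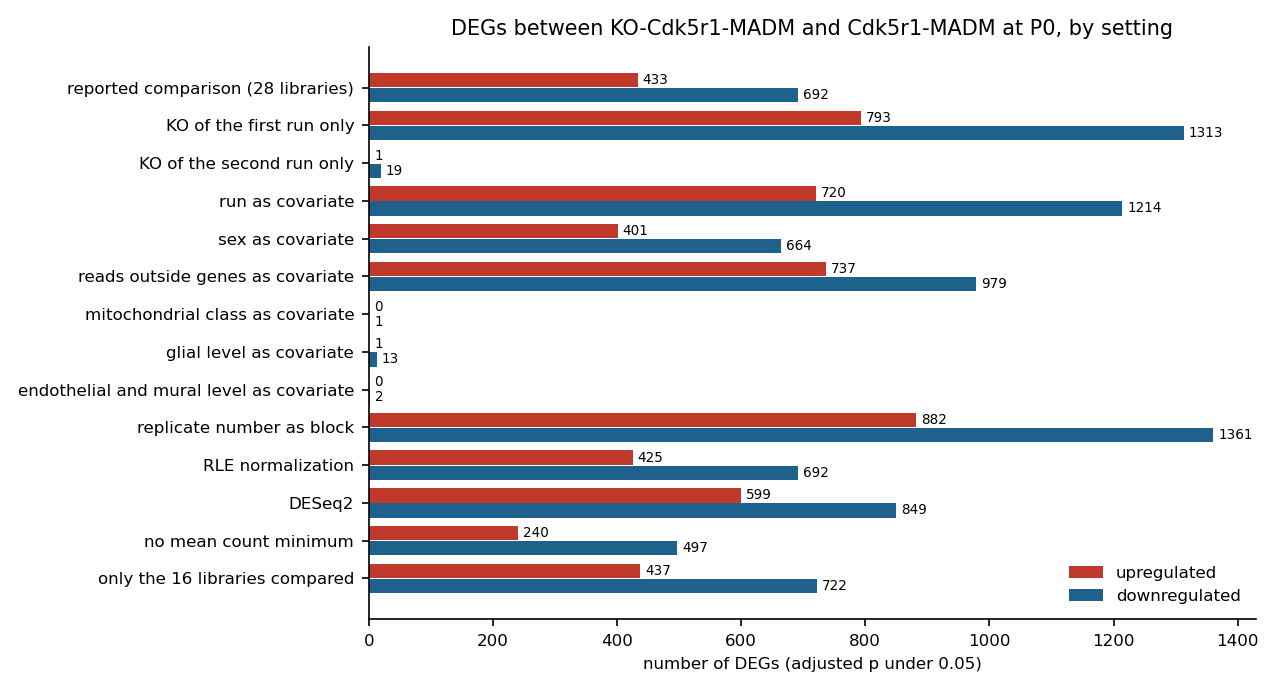
Number of upregulated (red) and downregulated (blue) DEGs of KO-Cdk5r1-MADM against Cdk5r1-MADM (P0) in the reported comparison and under other settings, each with the count printed. The counts range from 0 upregulated and 1 downregulated with the mitochondrial class as a covariate to 882 and 1361 where replicate numbers were blocked.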

How the data were processed

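Counts of reads per gene were deposited by the authors for each library of 2000 sorted cells of 1 cortex, as made by STAR from reads aligned to mm10 with a single place allowed (per the study's methods and the submitters' processing notes). They were neither normalized nor filtered, and the annotation release and STAR version are not given in the sources used here. The column that ignores strand was used, since 48.9% to 50.0% of gene reads at P0 lay on the annotated strand. Of all P0 reads, 55.2% were on genes, 13.6% outside genes, 5.34% on more than 1 gene and 25.9% not aligned to a single place. Library sizes and tests were built from the reads on genes. Counts without molecular identifiers include amplified copies, so depth covers counting error only. No libraries within a group were close enough to be copies (highest correlation 0.977).

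The 3 genotypes at P0 (28 libraries, 1 cortex each) were fitted together in R 4.3.3 with edgeR 4.0.16 (TMM, robust quasi-likelihood F test, mean count above 10, Benjamini-Hochberg adjustment over all tested genes, DEG under 0.05). Fold changes are KO-Cdk5r1-MADM minus Cdk5r1-MADM on the log2 scale unless another contrast is named. Normalized CPM use TMM library sizes, and the sums of marker lists are CPM of all gene counts. These sums were compared in scipy 1.17.1 with the exact permutation test over 8008 regroupings, whose smallest possible p is 0.00025. At E16, libraries with fewer than 50% of reads at a single place did not enter. Changes from E16 to P0 were tested as interactions. Alternatives were DESeq2 1.42.0, RLE normalization, no mean count minimum, only the 2 genotypes, the replicate number as a block, leaving out each library, and covariates for reads outside genes, mitochondrial class, sex as read from the counts, glial level, and endothelial and mural level. Splits by run of library numbers, and leaving out the E16 libraries apart, were added after seeing the data. The test was tried on simulated data of 13087 genes with 200 changed, where it recovered 74% of those with an absolute log2 fold change of 1 and 97% of those with 2, and called 5 unchanged genes.

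The comparison, gene lists and named genes were chosen with earlier results of these data known, so no list is independent evidence of its own direction. The 35 function lists and 17 cell type lists were written from known families and markers. Genes are named from a rule: Cdk5r1 and its partners, the 15 upregulated and 8 downregulated DEGs with the smallest adjusted p outside matrix and adhesion, the 5 upregulated with the largest change at 5 CPM or more, and up to 2 DEGs per direction of each function list and 3 abundant members and 2 DEGs of each cell type list, of which those that the text uses are given. Genes named only by clone or model number are not described, and a result that the rule selects is not reported here. Of the 86 genes named, 30 overlap another annotated gene, and reads that fell on more than 1 gene are not in their counts. Figures were drawn with matplotlib 3.10.9.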

Additional observations from a re-analysis of the deposited data

Results flagged for a closer look

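Among 206 groups of library values examined, 23 held a lowest or highest value farther from its neighbour than Dixon's critical value allows, and chance alone gives about 1 in 20. KO-Cdk5r1-MADM replicate 9, of the second run, was highest for the radial glia list (12885 summed CPM), Fabp7 (3935 CPM) and Ptn (2090 CPM), and lowest for the subplate list (120.9 summed CPM) and Nxph4 (22.7 CPM). In KO-Cdk5r1-MADM, Cdk5r1 was highest in replicate 7 (112 CPM), Adi1 in replicate 4 (82.4 CPM) and Sstr3 in replicate 5 (12.6 CPM).

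In Cdk5r1-MADM, replicate 4 was highest for Cdk5r1 (122 CPM), Sstr3 (1.82 CPM), Canx (423 CPM), Dkk3 (229 CPM) and the upper-layer list (6170 summed CPM), and lowest for Sox10 (51.1 CPM). Replicate 5 was highest for Kcng1 (12.4 CPM), Cdk5r2 (46.1 CPM) and Npy (212 CPM), and replicate 6 for Lnx2 (20.2 CPM) and Nxph4 (49.4 CPM). Replicate 3 was highest for Cldn5 (294 CPM), Esam (51.0 CPM) and the endothelial list (1098 summed CPM), and replicate 1 for the radial glia list (15985 summed CPM).

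The difference of the log2 fold change between P0 and E16 (P0 minus E16) passed the interaction test in edgeR for 32 of the 86 named genes, and for 9 of the 86 without the E16 libraries apart. Among genes upregulated at P0 it was 2.93 for Glt28d2, 1.80 for Kcng1, 1.39 for Neurod1, 1.36 for Sstr2, 1.29 for Nos1, 1.25 for Slc17a6, 1.18 for Frmd4b and 1.16 for Dusp4. It was 0.98 for Fau, 0.88 for Lnx2, 0.83 for Map2k6, 0.76 for Tubb4a, 0.59 for Sez6 and 0.58 for Copa, and 0.42 for Cux1, which was not a DEG at P0.

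Among genes downregulated at P0, the difference was -2.81 for Sorcs3, -2.18 for Fst, -2.04 for Sstr1, -1.80 for Pld2, -1.49 for Atp1b1, -1.07 for Dhcr7, -0.97 for Sox9 and -0.64 for Msmo1. Markers of the cells in which the E16 libraries apart are rich had larger differences, of -7.73 for Cldn5, -5.93 for Esam, -5.21 for Rgs5, -4.58 for Sox10, -4.20 for Cspg4, -3.92 for Dlx6os1, -3.29 for Dlx2, -3.09 for Dlx1 and -2.37 for Apoe. The interneuron list summed to 1384 to 1604 CPM in the 4 KO-Cdk5r1-MADM libraries apart and to 126 to 314 in the other KO-Cdk5r1-MADM libraries at E16.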

How the results depend on the processing

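The 433 upregulated and 692 downregulated DEGs stayed within 1.5 times their number under DESeq2 (599 and 849), RLE normalization (425 and 692), only the 2 genotypes compared (437 and 722) and sex as a covariate (401 and 664). Without a mean count minimum there were 240 and 497, and with reads outside genes as a covariate 737 and 979, which moved the upregulated share of DEGs from 38.5% to 42.9%. With the mitochondrial class as a covariate there were 0 upregulated genes and 1 downregulated, with the endothelial and mural level 0 and 2, and with the glial level 1 and 13. These covariates differ between the paradigms, so they take up part of the contrast by construction. With the run of library numbers as a covariate there were 720 and 1214, with only the first run 793 and 1313, and with only second-run KO-Cdk5r1-MADM libraries 1 and 19. Leaving out 1 library at a time gave 209 to 518 upregulated and 351 to 835 downregulated DEGs, each lowest without Cdk5r1-MADM replicate 1 and highest without KO-Cdk5r1-MADM replicate 9. The upregulated number also fell by over 1.5 times without Cdk5r1-MADM replicate 2 (273) or 5 (268), or without KO-Cdk5r1-MADM replicate 1 (279), 2 (280), 3 (272) or 5 (287). With the replicate number as a block there were 882 and 1361. The numbers did not pair the libraries (correlations of deviations -0.121 to 0.187 over 6 pairs, with the own number the best match in 1).

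Of 77 named DEGs, 75 kept their call with DESeq2, 65 without a mean count minimum, 4 with the glial and 2 with the vascular covariate, and none with the class covariate. Leaving out 1 library took the call from 13 of them, which for Dlx2, Esam and Pafah1b1 was 1 library each (Cdk5r1-MADM replicates 1, 3 and 4) and for Etv1, Mfge8, Mfng, Neurog2, Nsg2, Pdgfrb, Ptn, Tmem178, Vipr1 and Ywhae any of 2 to 15 libraries (adjusted p up to 0.109 for these 10). With the class covariate Neurog2 had a log2 fold change of -0.074, with the glial covariate Nsg2 had -0.036 and Mfge8 0.22, and with the vascular covariate Mfge8 had 0.06, all against their reported direction. Mfge8 is a member of the radial glia list and so part of the glial covariate itself. With the first run alone the log2 ratio of the summed level passed the exact test for deep-layer (0.45), subplate (0.20), proliferation (-0.52) and choroid plexus markers (-2.31). Without 1 library the log2 ratio was 0.18 to 0.31 for deep-layer, 0.16 to 0.25 for subplate, -2.16 to -1.20 for choroid plexus and -1.95 to -1.34 for microglia markers. The deep-layer and subplate lists passed without KO-Cdk5r1-MADM replicate 9, choroid plexus passed without Cdk5r1-MADM replicate 6, and microglia no longer passed without Cdk5r1-MADM replicate 1, 3, 5 or 6 (adjusted exact p up to 0.073). Choroid plexus markers gave no value with TMM-normalized CPM over tested genes, where libraries were at 0. The cause of these changes was not tested. Depth and 6 Cdk5r1-MADM libraries limit what small changes can be called.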

Other observations

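With the 4 second-run KO-Cdk5r1-MADM libraries alone, the 19 genes lower than in Cdk5r1-MADM included, besides those described, Cntn1 (log2 fold change -1.32, adjusted p = 0.0252, edgeR), Alcam (-0.99, adjusted p = 0.0193), Gap43 (-1.20, adjusted p = 0.0252) and Dpp10, which modifies potassium channels (-2.61, adjusted p = 0.0162). Npy1r, a receptor of neuropeptide Y, was at -2.31 (adjusted p = 0.0162) and Lmo4, a transcriptional cofactor of upper layers, at -1.04 (adjusted p = 0.0356). Gap43 and Dpp10 were not DEGs with all libraries. With the glial level as a covariate, the 1 upregulated gene was Hes5, a Notch target of radial glia (1.23, adjusted p = 0.0147). Hes5 is a member of the radial glia list and so part of this covariate, and its median was 492 CPM in KO-Cdk5r1-MADM against 577 in Cdk5r1-MADM. Its call is therefore not a rise in level. The downregulated genes included Slc12a5, the potassium-chloride cotransporter of neurons (-1.46, adjusted p = 0.0401), Mapt, which encodes tau (-0.76, adjusted p = 0.045), and Gabbr2 (-1.23, adjusted p = 0.00279). Neither Hes5, Slc12a5 nor Mapt was a DEG in the comparison as reported. These genes were named after their values were seen.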
